A study of Homo sapiens with 7 samples.

Results

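The resting miRNA profile of HepG2 cells, an established human line labelled as hepatocellular carcinoma cells from liver, was read from 1 small RNA library of untreated wild-type cells. The cells were grown in DMEM with 10% fetal bovine serum, and total RNA went into a ligation-based small RNA kit. The profile comprised every human miRNA name listed for that library, 2652 of 2652 names. The series holds 7 libraries. The 6 others came from the same line after 24, 36 or 48 h with either of 2 siRNAs against TEAD1, and each siRNA and time has 1 library. Those 6 are used here for ranges over all 7 libraries, with no contrast between treatments. The untreated group has 1 library and therefore no replicate, SD or test. The 95% intervals given are exact Clopper-Pearson intervals. On levels and shares of reads they cover counting error only, with each read taken as an independent count. The reads carry no molecular identifiers, so reads copied from 1 molecule cannot be told apart and the intervals may be too narrow. On shares of hairpins they treat the hairpins as independent draws, and no interval covers variation between libraries.

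A miRNA is cut from a hairpin transcript, first by Drosha in the nucleus and then by Dicer in the cytoplasm, which leaves a short duplex with a 5p and a 3p strand. An Argonaute protein keeps a single strand, and the bases behind its first base, the seed, pair with target mRNAs and lead to their repression. miRNAs with the same seed form a family with overlapping targets, and hairpins that lie close together on a chromosome are often cut from a shared transcript. In the liver, hepatocytes are known for very high levels of miR-122, which supports lipid metabolism and is often lost in poorly differentiated liver tumours.

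The mature sequences of the 10 most abundant miRNAs are shown first, because they held 75.3% of all miRNA reads and fall into few seed groups. They are written 5′ to 3′ as RNA, match the RefSeq table of GRCh38.p14, and carry the seed (bases 2 to 8) in capitals.
miR-21-5p: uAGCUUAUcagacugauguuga
let-7f-5p: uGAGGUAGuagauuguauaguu
miR-30a-5p: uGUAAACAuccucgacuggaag
let-7i-5p: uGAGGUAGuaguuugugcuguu
miR-7-5p: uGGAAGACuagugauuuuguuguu
let-7g-5p: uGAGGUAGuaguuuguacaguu
miR-100-5p: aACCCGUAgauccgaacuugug
miR-99a-5p: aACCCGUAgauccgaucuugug
let-7a-5p: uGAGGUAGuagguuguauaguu
miR-148a-3p: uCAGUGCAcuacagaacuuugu
Of these, 4 share the let-7 seed GAGGUAG, and miR-100-5p shares its seed ACCCGUA with miR-99a-5p. The remaining 4 have a seed that no other miRNA of the 10 carries. All but miR-100-5p and miR-99a-5p begin with U.

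The other members of the let-7 seed group above the detection level used below are shown because the family was the most populated of the profile.
let-7b-5p: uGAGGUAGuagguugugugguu
let-7c-5p: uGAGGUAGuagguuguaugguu
miR-98-5p: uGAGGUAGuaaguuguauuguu
let-7e-5p: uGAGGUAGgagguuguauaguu
let-7d-5p: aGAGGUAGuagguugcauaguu
Several of these miRNAs differ by a single base outside the seed, so their counts rest on how the reads were assigned. Counted from 1 at the 5′ end, let-7a-5p differs from let-7f-5p by A12G (let-7f base first), let-7c-5p from let-7a-5p by A19G and let-7e-5p from let-7a-5p by U9G. miR-99a-5p differs from miR-100-5p by A16U. Despite the likeness their levels were far apart in most cases: let-7f-5p had 4.50 times the reads of let-7a-5p, and let-7a-5p had 9.46 times those of let-7c-5p. miR-100-5p and miR-99a-5p were closer, at a ratio of 1.24.

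The untreated library held 14308482 reads, and 6171851 of them (43.1%) were assigned to a miRNA. Levels are given as CPM, reads per 1000000 reads assigned to a miRNA in the library, so that 10000 CPM is a share of 1%. No length correction is made, because a small RNA read spans a whole mature miRNA. Efficiency of adapter ligation differs between small RNA sequences, and its part in the ranking was not tested. At least 1 read was found for 1137 of the 2652 miRNAs, and 213 of those had exactly 1 read. A miRNA is called expressed here at 10 CPM or more, which is 62 reads in this library. That level was reached by 312 miRNAs, 11.8% of those listed, and they held 99.9% of the miRNA reads. The other 1515 (57.1%) had no read. A count of 0 allows a level of up to 0.486 CPM (3 reads, a one-sided limit), or 0.598 CPM by the two-sided 95% interval. Just inside the limit stood miR-451a and miR-212-3p at 10.2 CPM each, and just outside it miR-6868-3p at 9.72 CPM and miR-1275 at 9.56 CPM.

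The profile was steep. miR-21-5p alone, a miRNA that represses PDCD4 and is abundant in many tumours, stood at 316319 CPM (95% interval 315952 to 316686), or 31.6% of miRNA reads. let-7f-5p followed at 115526 CPM (115274 to 115778). These were the only miRNAs above 100000 CPM and held 43.2% of the reads. A further 12 miRNAs lay between 10000 and 100000 CPM and held 37.0%, and 47 lay between 1000 and 10000 CPM with 15.9%. The 92 miRNAs between 100 and 1000 CPM held 3.20%, the 159 between 10 and 100 CPM held 0.558%, and the 302 between 1 and 10 CPM held 0.104%. The 523 detected below 1 CPM held 0.0206% of the reads. Thus 4 miRNAs carried 50% of the reads and 32 carried 90%.

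**Figure D1:**
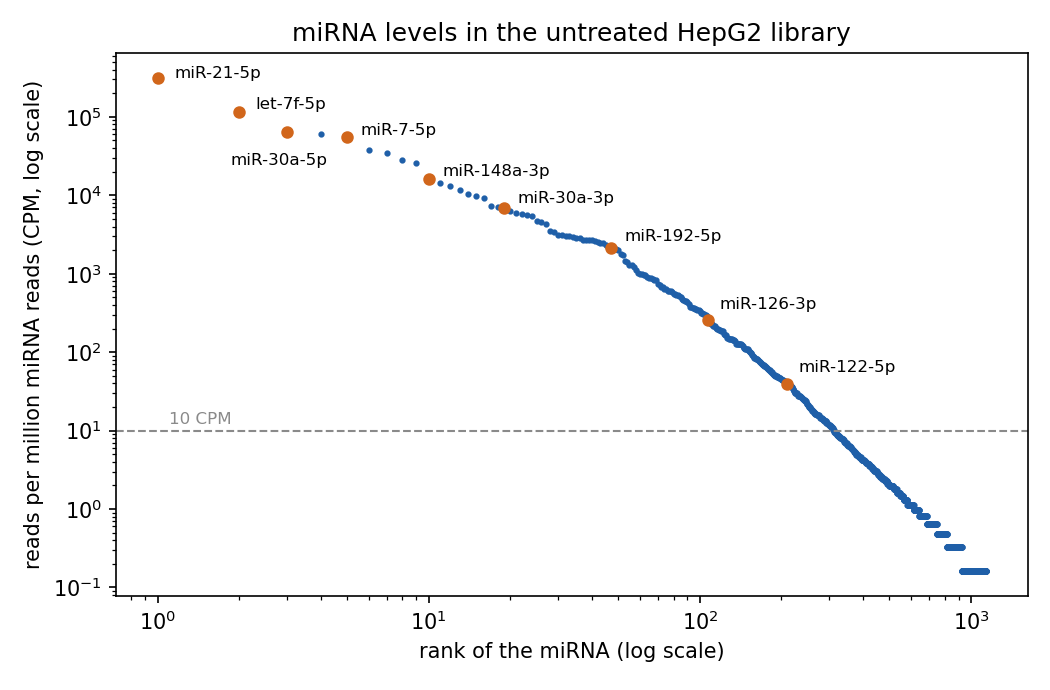
Level of each of the 1137 detected miRNAs (CPM, log scale, vertical axis) against its rank (log scale, horizontal axis) in the 1 untreated library; orange points are named and the dashed line is 10 CPM. The levels span from 316319 CPM for miR-21-5p to 0.162 CPM, the value of 1 read, and miR-122-5p lies at rank 210 with 39.5 CPM.

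Behind the leading pair, miR-30a-5p, a member of a family known to restrain autophagy and mesenchymal genes, stood at 63604 CPM (63411 to 63796). The tumour-suppressive let-7 members let-7i-5p (59875 CPM) and let-7g-5p (37369 CPM) took ranks 4 and 6. miR-7-5p, known to target EGFR and produced from 3 hairpins, stood between them at 56056 CPM (55874 to 56237). miR-100-5p at 34758 CPM and miR-99a-5p at 28072 CPM, both known to target MTOR, took ranks 7 and 8. let-7a-5p stood at 25700 CPM and miR-148a-3p, a liver-rich miRNA known to target DNMT1 and the LDL receptor, at 16007 CPM. The intervals of neighbours within these 10 ranks did not overlap, so their order within this library exceeds counting error when each read counts as independent.

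Ranks 11 to 20 lay within a much narrower range, from 14151 CPM to 6291 CPM. They were miR-27a-3p (14151 CPM), miR-92a-3p (13011 CPM), miR-27b-3p (11599 CPM), miR-151a-3p (10280 CPM), miR-30d-5p (9672 CPM), miR-24-3p (9303 CPM), miR-582-3p (7264 CPM), miR-103a-3p (7162 CPM), miR-30a-3p (6971 CPM) and miR-26a-5p (6291 CPM). miR-27a-3p and miR-27b-3p are known regulators of lipid metabolism genes, miR-92a-3p belongs to the oncogenic miR-17-92 cluster, and miR-103a-3p is known for its part in insulin sensitivity. The intervals of miR-582-3p (7197 to 7331 CPM) and miR-103a-3p (7096 to 7229 CPM) overlapped. Of all 20, miR-30a-3p was the only one that is the lesser strand of its hairpin.

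How far such ranks move between libraries of this line can be read from the other 6, which differ from the untreated one in treatment as well. miR-21-5p was first in all 7 libraries, at 243258 to 410632 CPM, and let-7f-5p took rank 2 or 3. Several of the leading miRNAs kept close ranks, for example ranks 3 to 6 for miR-30a-5p and 18 to 20 for miR-30a-3p. miR-7-5p ranged from rank 5, in the untreated library, to rank 13, and miR-582-3p from 16 to 44. Of the untreated library's 20 leading miRNAs, 17 to 20 were also among the 20 leading ones of each other library. The number at 10 CPM or more was 310 to 339 in the others, against 312 here. The number detected, 955 to 1038, was lower with 1920832 to 3739729 assigned reads. Drawing the untreated library down to 1920832 reads would leave an expected 888 detected miRNAs and 311 at 10 CPM or more. The library with that many reads, at 36 h of siRNA 1, had more of both, 988 and 330.

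The genes of the leading miRNAs lie at scattered places of GRCh38. MIR21 lies at chr17:59841266-59841337 on the plus strand, within an exon of VMP1. MIR30A is at chr6:71403551-71403621 (minus strand) in an intron of the non-coding AL136164.2, MIRLET7I at chr12:62603686-62603769 (plus) in an intron of AC048341.1 and MIRLET7G at chr3:52268278-52268361 (minus) in an intron of WDR82. MIR148A, at chr7:25949919-25949986 (minus), lies in no annotated coding or long non-coding gene of its strand. Of 207 hairpins behind expressed miRNAs of a single hairpin, 124 (59.9%) lay in an intron of a gene on the same strand. A further 51 (24.6%) overlapped an exon of such a gene, and 32 (15.5%) had no such gene on their strand. By reads of these hairpins the shares were 45.4%, 49.5% and 5.16%. Most of the exonic reads were those of MIR21, whose miR-21-5p alone held 31.6% of all miRNA reads.

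Summed by seed, the profile was held by few families. The 8 with the most reads held 84.0% of all miRNA reads. The 312 expressed miRNAs carried 244 different seeds, of 2090 among all listed miRNAs, and for 207 of the 244 a single expressed miRNA carried the seed. miR-21-5p made up its family almost alone at 31.6% of miRNA reads. The other listed miRNA with its seed, miR-590-5p, had 12 reads (1.94 CPM). The let-7 family came next with 25.4% of the reads from 9 expressed members of 11 listed. miR-4500 and miR-4458, the other two, had 3 reads and 1 read.

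**Figure D2:**
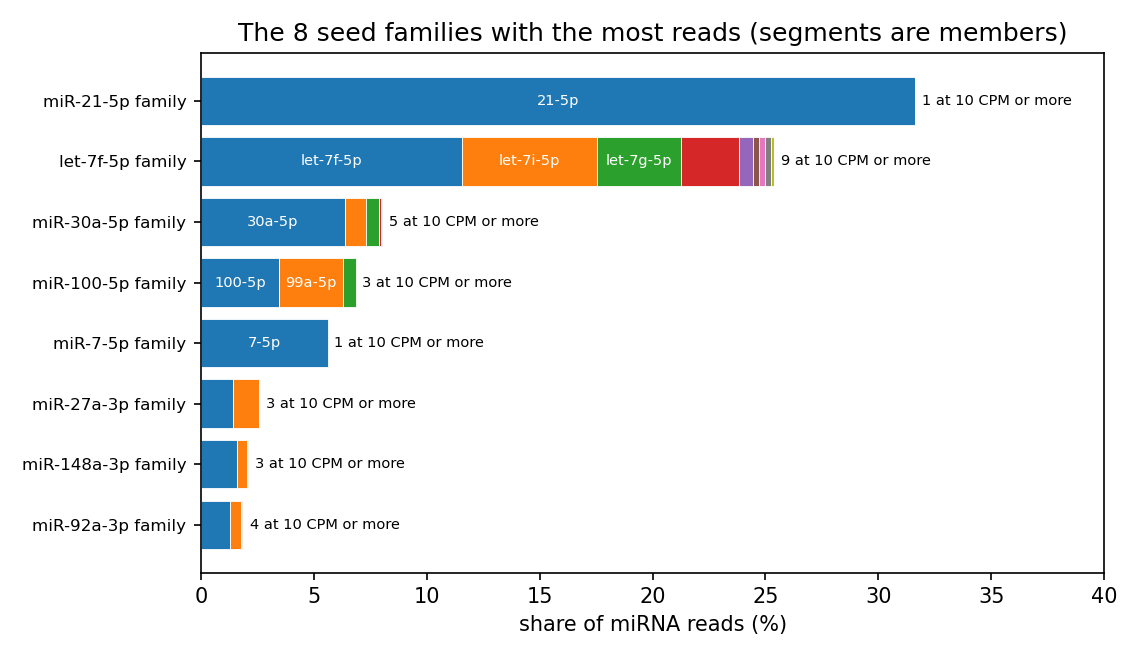
Share of miRNA reads (%, horizontal axis) of the 8 seed families with the most reads in the untreated library, each bar divided into its members in falling order, with the number of members at 10 CPM or more beside it. The miR-21-5p bar is a single member at 31.6%, while the let-7 bar of 25.4% is split over 9.

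Within the let-7 family, whose members repress RAS genes, MYC and HMGA2, let-7f-5p gave 45.5% of the reads, let-7i-5p 23.6%, let-7g-5p 14.7% and let-7a-5p 10.1%. The remaining members were low by comparison: let-7b-5p gave 2.35%, let-7c-5p 1.07%, miR-98-5p 1.06%, let-7e-5p 1.03% and let-7d-5p 0.564%. Their levels ran from 5976 CPM for let-7b-5p to 1431 CPM for let-7d-5p, so that each passed 1000 CPM.

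The miR-30 family held 8.02% of miRNA reads with all 5 members expressed. miR-30a-5p gave 79.3% of it, miR-30d-5p 12.1% and miR-30c-5p 7.16%, against 0.788% for miR-30e-5p and 0.739% for miR-30b-5p. The miR-30a and miR-30e strands are shown because near-identical sequences stood at very different levels.
miR-30a-5p: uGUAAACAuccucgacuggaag
miR-30e-5p: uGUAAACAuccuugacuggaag
miR-30a-3p: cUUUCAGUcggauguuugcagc
miR-30e-3p: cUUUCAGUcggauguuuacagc
miR-30e-5p differs from miR-30a-5p by C13U and stood at 632.7 CPM, so miR-30a-5p had 100.5 times its reads. The 3p strands differ by G18A (miR-30a base first), and there the ratio was 15.2, with 6971 CPM against 458.9 CPM.

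The miR-99/100 family held 6.85%, of which miR-100-5p gave 50.8%, miR-99a-5p 41.0% and miR-99b-5p 8.22%. miR-7-5p has no other listed miRNA with its seed and held 5.61%. The miR-27 seed held 2.58%, almost evenly from miR-27a-3p (54.9%) and miR-27b-3p (45.0%), which differ by C19U. miR-9985 carries the same seed and stood at 12.5 CPM. The miR-148/152 family held 2.07%, with 77.2% from miR-148a-3p, 21.8% from miR-148b-3p (4520 CPM) and miR-152-3p at 213.4 CPM. The miR-25/92 family held 1.86%, with 69.8% from miR-92a-3p, 25.2% from miR-25-3p (4705 CPM), 3.64% from miR-92b-3p and 1.33% from miR-32-5p. In that family miR-363-3p, made with the miR-106a cluster of the X chromosome, stood at 1.94 CPM, and miR-367-3p, known from embryonic stem cells, had no read.

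Hairpins on the same strand with gaps of at most 10 kb were grouped into clusters, and only mature miRNAs made by no other hairpin were summed. Among 1903 placed hairpins there were 100 clusters of at least 2. Mature miRNAs of a single hairpin held 74.5% of the miRNA reads, and 23.9% of that amount came from clusters. The largest cluster sum was that of miR-100 with let-7a-2 on the minus strand of chr11:122146522-122152308, within MIR100HG, at 3.48% of miRNA reads. With gaps of up to 50 kb the largest was instead miR-30a with miR-30c-2, at 7.15%. With shared mature miRNAs split equally over their hairpins it was let-7a-1, let-7f-1 and let-7d, at 6.84%. The paralog of the miR-100 cluster, miR-99a with let-7c at chr21:16539089-16539911 (plus) within MIR99AHG, followed with 3.08%. The third cluster of this kind, miR-99b with let-7e and miR-125a at chr19:51692612-51693339 (plus) within SPACA6, held 1.01%. In the clusters on chromosomes 21 and 19, the miR-99 member was above the let-7 member: miR-99a-5p had 10.3 times the reads of let-7c-5p (10.2 to 10.5), and miR-99b-5p stood at 5626 CPM against 2614 CPM for let-7e-5p. In the chromosome 11 cluster the let-7a-5p reads cannot be assigned to 1 hairpin.

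The miR-23a/27a/24-2 cluster at chr19:13836287-13836659 (minus) held 1.91% and its paralog miR-23b/27b/24-1 at chr9:95085208-95086088 (plus), within C9orf3, 1.27%. miR-27 led in both, with miR-23a-3p at 3093 CPM and miR-23b-3p at 950.1 CPM. The chromosome 8 pair miR-30d and miR-30b held 1.03%, with 16.3 times more reads of miR-30d-5p than of miR-30b-5p. The miR-106b-25 cluster at chr7:100093560-100094074 (minus), in an intron of the replication gene MCM7, held 0.826%. There miR-25-3p stood at 4705 CPM, miR-106b-3p at 1757 CPM, miR-93-5p at 1449 CPM and miR-106b-5p at 308.5 CPM. The sensory-organ cluster miR-183/96/182 at chr7:129770383-129775014 (minus) held 0.746%, with miR-182-5p at 3507 CPM, miR-183-5p at 2664 CPM and miR-96-5p at 1278 CPM.

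Beyond these 8 clusters, the next in size included pairs with near-equal members, named after their values were seen. miR-221-3p and miR-222-3p, known repressors of the cell-cycle inhibitor CDKN1B, stood at 3026 CPM and 2431 CPM, a ratio of 1.24 (1.22 to 1.27). miR-224-5p and miR-452-5p, made from GABRE on the X chromosome, had a ratio of 1.26 (1.23 to 1.28). The miR-17-92 cluster at chr13:91350605-91351391 (plus) was uneven: miR-20a-5p stood at 3159 CPM and miR-17-5p at 2193 CPM, against 128.0 CPM for miR-19a-3p and 50.1 CPM for miR-18a-5p. Neighbouring hairpins thus ranged from near-equal to widely different levels.

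**Figure D3:**
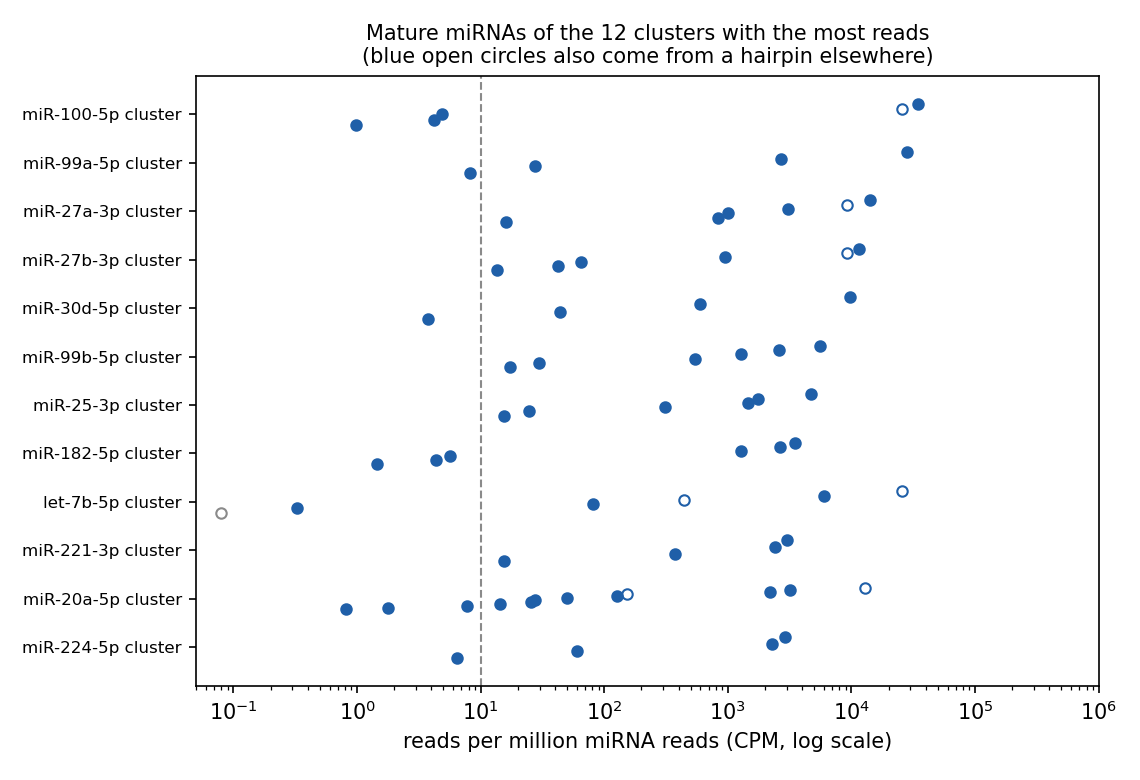
Level (CPM, log scale, horizontal axis) of the mature miRNAs of the 12 clusters with the most reads in the untreated library, one row a cluster; filled points come from that cluster alone, blue open circles also from a hairpin elsewhere, the grey open circle is 0 reads and the dashed line is 10 CPM. The miR-221-3p and miR-224-5p rows have their leading members close together at 3026 and 2431 CPM and at 2888 and 2299 CPM, while miR-99a-5p and let-7c-5p lie at 28072 and 2717 CPM.

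Several abundant miRNAs are made by more than 1 hairpin, and only the opposite strand tells the copies apart. These sets were chosen after their values were seen. Of the reads from opposite strands of the miR-7 copies, all 291 were miR-7-1-3p of MIR7-1 (chr9:83969748-83969857, minus strand, within HNRNPK) and none was miR-7-2-3p of MIR7-2. The third copy has no strand of its own in the list. For let-7f, 662 of 850 such reads (77.9%, 74.9 to 80.6) came from let-7f-1 on chromosome 9 and 188 from let-7f-2 in HUWE1 on the X chromosome. For let-7a, 2732 reads were let-7a-3p, shared by the chromosome 9 and 22 copies, and 26 (0.943%) were let-7a-2-3p of the MIR100HG cluster. For miR-92a all 157 reads were miR-92a-1-5p of the miR-17-92 cluster, and for miR-128 all 74 were miR-128-1-5p of the copy in R3HDM1.

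For miR-24, 95.2% of 5363 opposite-strand reads were miR-24-2-5p of the miR-23a cluster and 4.85% miR-24-1-5p of the miR-23b cluster. For miR-30c, 98.5% of 6105 such reads were miR-30c-2-3p, whose hairpin lies in the same non-coding host as MIR30A, and 1.46% miR-30c-1-3p in NFYC. For miR-16, 95.8% of 711 were miR-16-2-3p in SMC4 and 4.22% miR-16-1-3p in DLEU2. The miR-125b copies were less uneven, with 73.5% from miR-125b-2-3p in MIR99AHG and 26.5% from miR-125b-1-3p in MIR100HG. For miR-181a, 75.0% were miR-181a-2-3p. Of all 18 sets with at least 30 opposite-strand reads and strands of distinct sequence, the leading copy kept its lead over the 7 libraries in 17, with 91.0% to 97.1% for miR-24-2-5p and 54.8% to 75.0% for miR-181a-2-3p. The exception was miR-29b, where miR-29b-1-5p gave 78.6% of 42 reads here and as little as 28.6% in another library. How long each opposite strand lasts in the cell was not measured, so these shares describe strands and not transcription of the copies.

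Strand choice was assessed in 151 single-copy hairpins with both arms listed and at least 100 reads over both. The 5p arm led in 83 of them (55.0%, 46.7 to 63.1) and the 3p arm in 68. The intervals here are over hairpins taken as independent draws and not over reads. In 110 hairpins (72.8%, 65.0 to 79.8) a single arm had at least 90% of the reads, 66 times the 5p arm and 44 times the 3p arm. In 63 hairpins it had at least 99%, and the median share of the leading arm was 98.1%. Each arm had at least 20% of the reads in 21 hairpins. The lesser arms of all 151 together held 102672 reads, 2.25% of the reads of these hairpins. Both arms reached 10 CPM in 69.

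The 5 most abundant hairpins with a 5p arm at 90% or more were MIR21, MIR30A, MIRLET7I, MIRLET7G and MIR100. In MIRLET7I, MIRLET7G and MIR100 the 3p arm stood at only 5.83, 6.97 and 4.86 CPM. MIR21 gave 99.8% of its reads from the 5p arm, and yet miR-21-3p stood at 606.9 CPM, above most expressed miRNAs. MIR30A was the least one-sided of the 5, at 90.1% from the 5p arm. The 5 most abundant with a 3p arm at that level were MIR148A, MIR27A, MIR27B, MIR151A and MIR582. MIR148A gave 99.9% from its 3p arm, with 117 reads of miR-148a-5p, and MIR151A 99.9%, with miR-151a-5p at 6.48 CPM. The paralogs MIR27A and MIR27B differed: miR-27a-5p stood at 1005 CPM and gave 6.63% of its hairpin's reads (6.47 to 6.79), while miR-27b-5p stood at 65.1 CPM and gave 0.558% (0.505 to 0.616).

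**Figure D4:**
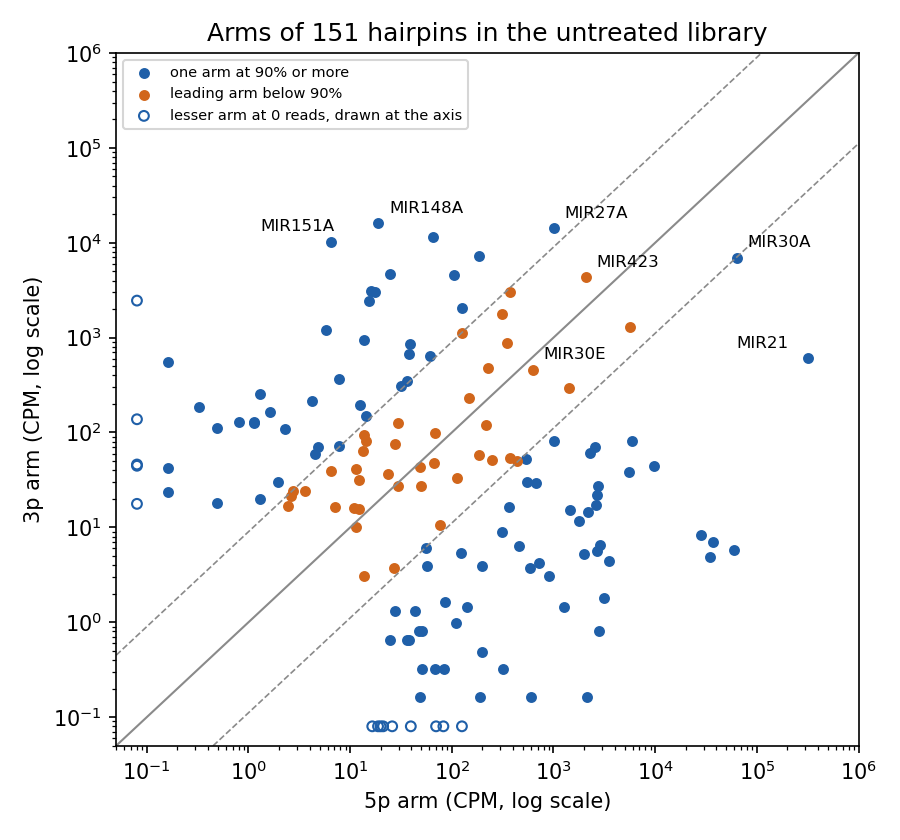
Level of the 3p arm against the 5p arm (CPM, both axes log scale) for each of the 151 single-copy hairpins in the untreated library; the solid line marks equal arms and the dashed lines 90% of reads from one arm. Blue points, 110 of the 151, lie outside the dashed lines, MIR423 and MIR30E lie between them, and open circles have no read of the lesser arm.

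The strands of 3 hairpins led by the 3p arm and of 3 balanced ones are shown so that their first bases and seeds can be compared, as the deposited table gives them.
miR-148a-5p: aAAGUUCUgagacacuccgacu
miR-148a-3p: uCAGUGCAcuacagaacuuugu
miR-27a-5p: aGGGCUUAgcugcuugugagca
miR-27a-3p: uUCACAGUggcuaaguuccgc
miR-582-5p: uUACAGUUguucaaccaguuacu
miR-582-3p: uAACUGGUugaacaacugaacc
miR-423-5p: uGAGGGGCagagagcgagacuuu
miR-423-3p: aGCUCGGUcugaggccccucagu
miR-374a-5p: uUAUAAUAcaaccugauaagug
miR-374a-3p: cUUAUCAGauuguauuguaauu
miR-330-5p: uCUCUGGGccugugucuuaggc
miR-330-3p: gCAAAGCAcacggccugcagaga
In MIR148A and MIR27A the leading strand starts with U and the lesser one with A. In MIR582 both strands start with U, and the 3p strand had 97.5% of the reads. In MIR423, MIR374A and MIR330 the 3p strand led, which starts with A, C and G in turn, while the 5p strand starts with U in each.

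Among hairpins with each arm at 20% or more, the 8 most abundant were MIR423, MIR374A, MIR30E, MIR330, MIR132, MIR15B, MIR675 and MIR331. Their 5p shares ran from 28.4% in MIR374A (27.4 to 29.4) to 75.9% in MIR675 (73.7 to 78.1). MIR423 had 2083 CPM of miR-423-5p and 4349 CPM of miR-423-3p. MIR30E had 632.7 and 458.9 CPM, a 5p share of 58.0%, while its paralog MIR30A had 90.1%. MIR132, known for neuronal activity responses, had a 5p share of 39.3%, MIR330 one of 32.1%, MIR331 one of 40.7% and MIR15B, of the miR-15/16 family that represses BCL2, one of 64.5%. MIR675 lies within the H19 transcript. The same arm led in all libraries with at least 10 reads for 140 of the 151 hairpins (92.7%). Among the 11 others were MIR374A, MIR30E, MIR330 and MIR331 of the balanced 8, and MIR30E was led by its 3p arm in 3 libraries.

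Among the 151 single-copy hairpins, the most abundant lesser arms were miR-30a-3p at 6971 CPM, rank 19 of the library, miR-423-5p at 2083 CPM, miR-99b-3p at 1286 CPM, miR-27a-5p at 1005 CPM and miR-21-3p at 606.9 CPM. They gave between 0.192% (miR-21-3p) and 32.4% (miR-423-5p) of the reads of their hairpins.

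Argonaute proteins are known to favour a strand whose first base is U or A. Of the 151 hairpins, 84 leading arms (55.6%) began with U, against 36 lesser arms (23.8%). Where a single arm began with U, it was the leading arm in 65 of 82 hairpins (79.3%). A began 34 leading arms (22.5%) and 46 lesser arms (30.5%), C began 25 (16.6%) and 48 (31.8%), and G began 8 (5.30%) and 21 (13.9%). Counted by reads, 84.1% of all miRNA reads came from miRNAs that start with U, 10.7% from those that start with A, 5.11% with C and 0.175% with G. Counted once each, the 312 expressed miRNAs started with U in 44.9%, those detected below 10 CPM in 42.3% and those with no read in 31.5%. For G the shares were 4.17%, 12.6% and 16.4%. Mean GC content was 49.4% in the expressed miRNAs, 54.2% in those detected below 10 CPM and 52.0% in those with no read. By reads it was 40.5%, and 82.4% of the reads came from miRNAs of 22 bases.

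The expressed set was also uneven over the numbers in miRNA names, which follow the order of discovery. Of 957 miRNAs numbered below 1000, 262 (27.4%) were expressed, and the 957 held 99.3% of the reads. Of the 200 numbered from 1000 to below 3000, 23 (11.5%) were expressed, with miR-1307-3p highest at 2043 CPM. Of the 1495 numbered 3000 and above, 27 (1.81%) were expressed, with miR-7974 highest at 554.1 CPM.

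The labelled cell type was set beside 7 liver-enriched miRNAs, of which 5 were expressed. That is 71.4%, against 11.8% of all miRNAs and 27.4% of those numbered below 1000. This list, like the others used here, was chosen with earlier results of these data known, so its share is descriptive only. The 7 held 2.09% of miRNA reads in sum, and their median was 63.5 CPM, against 0 CPM over all listed miRNAs. miR-148a-3p gave most of that sum at 16007 CPM. miR-101-3p, which targets EZH2, stood at 2656 CPM (2615 to 2697) and miR-192-5p, a hepatocyte and gut miRNA, at 2155 CPM (2118 to 2192). miR-194-5p, made from hairpins beside those of miR-192 and miR-215, stood at 63.5 CPM (57.4 to 70.1).
miR-122-5p: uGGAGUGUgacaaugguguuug
miR-122-5p, the defining miRNA of hepatocytes, stood at 39.5 CPM (34.7 to 44.8), with 244 reads and rank 210, and over the 7 libraries it ranged from 3.92 to 48.9 CPM. miR-885-5p and miR-802, the other listed liver miRNAs, had no read. The cells thus carried some of the liver list at high levels, with its defining member low and 2 members undetected. miR-215-5p, the intestinal miRNA that shares its seed region with miR-192, stood at 38.1 CPM.

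**Figure D5:**
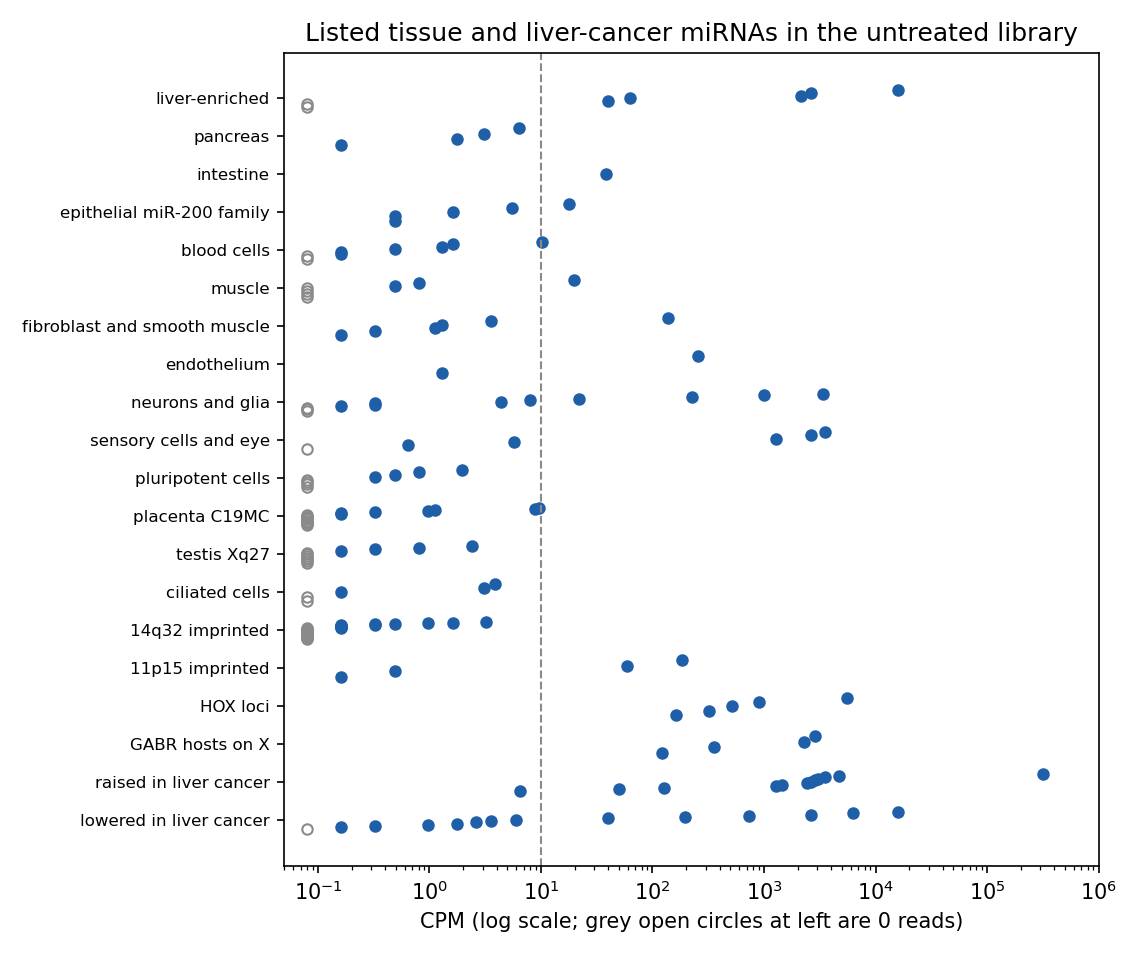
Level (CPM, log scale, horizontal axis) of each miRNA of 20 lists of tissue, locus and liver-cancer miRNAs in the untreated library, one row a list; grey open circles at the left are miRNAs with no read and the dashed line is 10 CPM. The HOX and GABR rows lie wholly to the right of the line, from 121.8 to 5502 CPM, and the rows for pluripotent cells, placenta, testis, ciliated cells and 14q32 wholly to its left.

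In the lists for pancreas, epithelium, blood and muscle at most 1 member was expressed. The share expressed was 11.8% of all miRNAs, and 27.4% of those numbered below 1000, to which the members of these lists belong. With lists this short, the values describe the named miRNAs. None of 4 pancreatic miRNAs was expressed, with miR-375-3p of islet cells at 1.78 CPM and miR-216b-5p highest at 6.32 CPM. Of the 5 members of the epithelial miR-200 family, which represses ZEB1 and ZEB2, miR-200c-3p stood at 17.7 CPM (14.5 to 21.3) and the rest below 10 CPM. Of 8 blood-cell miRNAs, miR-451a of red cells was at 10.2 CPM (7.84 to 13.1), an interval that spans the limit of 10 CPM. miR-223-3p of myeloid cells and miR-144-3p of red cells had no read, and miR-142-3p, found across leukocytes, stood at 1.62 CPM. Of 7 muscle miRNAs, miR-1-3p stood at 19.6 CPM (16.3 to 23.4) and ranged up to 891.8 CPM in the other libraries. miR-133b, miR-206, miR-208a-3p and miR-208b-3p had no read.

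Of 6 stromal and 2 endothelial miRNAs, 1 each was expressed, against 11.8% of all miRNAs and 27.4% of those numbered below 1000. miR-143-3p, of smooth muscle and fibroblasts, was at 137.9 CPM (128.8 to 147.5) and ranged up to 828.3 CPM in the other libraries. miR-145-5p, made beside it from a shared transcript, had 1 read, and miR-199a-5p and miR-214-3p had 8 and 2 reads. miR-126-3p, the endothelial miRNA made in EGFL7, was at 255.0 CPM (242.6 to 267.9) and its opposite strand miR-126-5p had 8 reads. The summed level of the 6 stromal miRNAs was 144.4 CPM and that of the blood list 13.9 CPM. Whether the miR-143-3p and miR-126-3p reads came from the HepG2 cells themselves was not tested.

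In the lists tied to germ cells, early embryo, placenta and ciliated cells no member was expressed. Of all miRNAs, 11.8% were expressed and 57.1% had no read. The 957 numbered below 1000 include all members of these lists but miR-1323. Of those 957, 27.4% were expressed and 543 had at least 1 read. None of 8 miRNAs of pluripotent cells was expressed, and their sum was 3.56 CPM, with miR-302b-3p highest at 1.94 CPM and miR-302d-3p, miR-367-3p, miR-371a-5p and miR-373-3p without a read. Of 17 listed miRNAs of the primate placental cluster on chromosome 19, 10 had no read: miR-512-3p, miR-515-5p, miR-517a-3p, miR-517b-3p, miR-518b, miR-519d-3p, miR-520a-3p, miR-525-5p, miR-526b-5p and miR-1323. miR-516a-5p at 9.56 CPM (7.28 to 12.3) and miR-522-3p at 8.91 CPM (6.71 to 11.6) were just below the limit, while the next of the list, miR-516b-5p, stood at 1.13 CPM. The list does not hold the whole cluster: miR-519a-5p, for example, whose sequence 6 names share, stood at 7.13 CPM. Of 11 miRNAs of the testis cluster on Xq27, miR-514a-3p was highest at 2.43 CPM. The 7 without a read were miR-507, miR-508-3p, miR-509-3p, miR-510-5p, miR-513a-5p, miR-888-5p and miR-890. Of 5 miRNAs of ciliated cells, miR-449a and miR-449b-5p had no read, and miR-34c-5p stood at 3.08 CPM.

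The imprinted 14q32 locus, a maternally expressed cluster rich in brain and placenta, had no expressed member among 32 listed. The share expressed was 11.8% of all miRNAs and 27.4% of those numbered below 1000, as all 32 are. The highest of the 32 was miR-381-3p at 3.24 CPM. Of the 32, 20 had no read, against 57.1% of all miRNAs, while 543 of the 957 numbered below 1000 had at least 1 read. The 20 were miR-136-5p, miR-154-5p, miR-299-5p, miR-329-3p, miR-337-3p, miR-376a-3p, miR-376c-3p, miR-377-3p, miR-382-5p, miR-410-3p, miR-431-5p, miR-432-5p, miR-433-3p, miR-487b-3p, miR-494-3p, miR-541-3p, miR-543, miR-655-3p, miR-656-3p and miR-758-3p. All 32 together came to 7.94 CPM. The imprinted 11p15 locus was split between its hosts. Both strands of miR-675, cut from the non-coding H19 RNA, were expressed, at 184.5 CPM for miR-675-5p and 58.5 CPM for miR-675-3p. miR-483-3p and miR-483-5p, from an intron of the fetal growth factor gene IGF2, had 3 reads and 1 read.

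In 2 lists of gene-linked groups every member was expressed, against 11.8% of all miRNAs and 27.4% of those numbered below 1000. These lists too were chosen with earlier results of these data known, so their shares are descriptive only. Of all 2652 miRNAs, 153 reached 100 CPM. All 5 listed miRNAs of the HOX loci, which lie among genes that set position along the body axis, passed 100 CPM. miR-10a-5p of HOXB stood at 5502 CPM, miR-10b-5p of HOXD at 910.4 CPM and miR-196a-5p at 521.1 CPM. miR-196b-5p of HOXA stood at 319.4 CPM and miR-615-3p of HOXC at 164.1 CPM. Of their opposite strands, miR-10a-3p reached 38.7 CPM. miR-10b-3p, miR-196a-3p, miR-196b-3p and miR-615-5p stood at 3.08, 3.56, 0.324 and 1.62 CPM. All 4 listed miRNAs hosted by GABA receptor genes on the X chromosome passed 100 CPM as well. These were miR-224-5p at 2888 CPM and miR-452-5p at 2299 CPM in GABRE, and miR-105-5p at 356.5 CPM and miR-767-5p at 121.8 CPM in GABRA3. Of their opposite strands, miR-452-3p and miR-105-3p stood at 60.8 and 44.4 CPM, and miR-224-3p and miR-767-3p at 6.48 and 5.35 CPM.

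The neuronal list was divided. Of 12 miRNAs, 4 were expressed (33.3%, against 11.8% of all miRNAs and 27.4% of those numbered below 1000). They were miR-128-3p at 3393 CPM, miR-218-5p at 1004 CPM, miR-132-3p at 228.3 CPM and miR-9-5p at 21.9 CPM. miR-124-3p, the defining miRNA of neurons, miR-129-2-3p and miR-138-5p had no read, and miR-137-3p stood at 7.94 CPM. In the list of sensory cells and eye, 3 of 6 were expressed, all from the miR-183/96/182 cluster. miR-184 of the lens stood at 5.67 CPM, miR-204-5p of the pigment epithelium at 0.648 CPM, and miR-211-5p had no read.

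Finally, lists of miRNAs that the literature describes as raised or lowered in liver cancer were read for level alone, with no normal liver to compare. The 12 described as raised had a median of 2548 CPM. Of them, 11 were expressed (91.7%, against 11.8% of all miRNAs and 27.4% of those numbered below 1000). They were miR-21-5p, miR-25-3p, miR-182-5p, miR-221-3p, miR-224-5p, miR-183-5p, miR-222-3p, miR-93-5p, miR-96-5p, miR-500a-3p at 126.2 CPM and miR-18a-5p at 50.1 CPM. miR-151a-5p was the exception at 6.48 CPM, with its opposite strand at 10280 CPM. Of 14 described as lowered, 6 were expressed (42.9%), also above 11.8% and 27.4%, with a median of 4.78 CPM over the list. These were miR-148a-3p, miR-26a-5p, miR-101-3p, miR-125b-5p at 741.3 CPM, miR-139-5p at 197.3 CPM and miR-122-5p. Of the others, miR-29c-3p stood at 5.99 CPM, miR-195-5p at 0.972 CPM, and miR-223-3p had no read. The lists share members with the tissue lists and are not independent of them. They were also chosen with earlier results of these data known, so their shares are descriptive only.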

How the data were processed

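Small RNA counts of 1 untreated HepG2 library were analysed, with 6 siRNA-treated libraries for ranges. The deposited values are raw counts of reads for each mature miRNA. A counter's 5 summary lines were left out of the totals (56.9% of the untreated reads had no miRNA). Aligner, counter and build: not given in the sources used here. How reads that fit several miRNAs were handled, and the ligation kit named in the labels' protocols, can shift levels. CPM divides by the reads assigned to miRNAs with no factor between libraries, so that values read as shares. Intervals are exact Clopper-Pearson (95%, scipy 1.17.1, Python 3.11.15). The scripts were tested on simulated counts.

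Names were matched to RefSeq (GRCh38.p14, 2363 of 2652 names) and GENCODE 29 (GRCh38), and 2637 were placed on a hairpin. For 5 names, with 1 read in all, the file's sequence differed from RefSeq's and the latter was used. Each of 40 names has the same sequence as another name, so miR-365a-3p (948 reads) and miR-365b-3p (916 reads), for example, cannot be told apart.

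Named were the 20 most abundant miRNAs, the 8 leading families and clusters, the 5 leading hairpins for either arm, the 8 leading balanced hairpins, the 5 leading lesser arms, and list members expressed or at 0. Others are examples or were chosen after their values were seen. The 20 lists and the rules were chosen with earlier results of these data known. Alternatives covered the CPM limit, scale, miR-21-5p, seed, gap, arm and list settings.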

Additional observations from a re-analysis of the deposited data

Results flagged for a closer look

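Reads that the counter gave to no miRNA made up 56.9% of the untreated library, 8136385 of 14308482 reads, and lie outside the profile described above. They were singled out because they are a signal in data that no value of the profile uses. The files give only their number, so what they are was not tested, and 246 further reads were counted as ambiguous.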

How the results depend on the processing

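No paired analysis was possible because the untreated group has 1 library, and for the same reason no replicate could be left out. The number of expressed miRNAs (312) was 614 at a limit of 1 CPM and 153 at 100 CPM. It was 247 with all reads of the library as the scale and 311 at the depth of the shallowest library. The share of the 10 leading miRNAs (75.3%) was 66.0% without miR-21-5p and 32.5% of all reads, the latter by construction. Without miR-21-5p the largest seed family was let-7 at 37.1%, the largest cluster sum rose from 3.48% to 5.09%, the liver-enriched share from 2.09% to 3.06%, and reads starting with U fell to 76.7%. That last share was 44.9% with each expressed miRNA counted once. The largest cluster depended on its definition: with gaps of up to 50 kb it was miR-30a with miR-30c-2 at 7.15%, and with shared miRNAs split equally over their hairpins it was let-7a-1, let-7f-1 and let-7d at 6.84%. Hairpins with a single arm at 90% or more (72.8%) came to 80.7% with at least 1000 reads, and an arm limit of 80% gave 86.1%. The 5p arm led in 48.3% of hairpins with at least 10 reads, against 55.0%. Without miR-148a-3p the liver-enriched share was 0.491%. The number of miRNAs that hold 90% of the reads (32) was 42 without miR-21-5p. Depth limits miRNAs near 1 read, and a level under 0.486 CPM can go unseen.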
